A study of Mus musculus with 6 samples.

Results

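The 9 genes Lck, Fyn, Blk, Zap70, Syk, Txk, Lat, Lcp2 and Plcg1 encode the first enzymes and adaptors that act below the T cell receptor. They were chosen by symbol from the 26771 genes that the deposited tables list, and all 9 had a value in each of the 6 libraries. The Induced group held 3 libraries of γδ T cells made from splenocytes with IL-1β and IL-23, taken on day 8 of that culture and purified with a magnetic pan T cell kit. The Initial group held 3 libraries of γδT17 cells sorted from spleen cells before any culture, by a gate that the labels do not describe. Both groups came from C57BL/6 mice of the genotype TCRβ-/-, which cannot make the β chain and so lack αβ T cells, and the titles name mice A, B and C in each group. The comparison asks how the messenger RNA of these cells differed after culture. Handling differed with the group throughout, since one was cultured and bead-purified and the other was freshly sorted, so culture and handling cannot be told apart.

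When the T cell receptor binds its ligand, Src family kinases phosphorylate the tail motifs of the CD3 chains, and a Syk family kinase docks there through paired SH2 domains. That kinase phosphorylates the membrane adaptor encoded by Lat and the cytosolic adaptor encoded by Lcp2. The complex so formed holds phospholipase Cγ1, which a Tec family kinase switches on to release calcium and diacylglycerol signals. In mice the γδ T cells that make IL-17 have been tied to Blk, a Src family kinase otherwise known from B cells.

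Starts of Lck, Fyn, Txk and Syk, the genes called lower in Induced cells, are shown here as reference sequence from RefSeq on GRCm38.p6. Each window runs from 250 bases before to 50 bases after an annotated start, 5′ to 3′. Capitals mark exact matches, on either strand, to AGGAAG for ETS factors, TGTGGT for RUNX factors, CAGGTG for E proteins and CTTTGA for TCF factors. Lck has a far upstream start, used in mature T cells, and a start nearer to the coding exons, used in thymocytes, and both are shown because the deposited FPKM does not separate their transcripts.
Lck upstream start (chr4:129573592-129573891, minus strand): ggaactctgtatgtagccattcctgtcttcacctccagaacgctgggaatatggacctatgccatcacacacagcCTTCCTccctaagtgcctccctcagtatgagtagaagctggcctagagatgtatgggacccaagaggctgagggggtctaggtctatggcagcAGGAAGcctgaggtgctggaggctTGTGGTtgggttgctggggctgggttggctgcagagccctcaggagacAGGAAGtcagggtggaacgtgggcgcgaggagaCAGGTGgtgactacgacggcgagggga
Lck downstream start (chr4:129558323-129558622, minus strand): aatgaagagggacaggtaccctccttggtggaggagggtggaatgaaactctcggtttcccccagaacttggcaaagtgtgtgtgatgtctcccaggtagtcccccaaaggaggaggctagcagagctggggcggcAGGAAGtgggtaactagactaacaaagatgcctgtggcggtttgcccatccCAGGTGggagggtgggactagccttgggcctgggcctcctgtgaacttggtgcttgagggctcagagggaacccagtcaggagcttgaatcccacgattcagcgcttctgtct
Fyn (chr10:39369549-39369848, plus strand): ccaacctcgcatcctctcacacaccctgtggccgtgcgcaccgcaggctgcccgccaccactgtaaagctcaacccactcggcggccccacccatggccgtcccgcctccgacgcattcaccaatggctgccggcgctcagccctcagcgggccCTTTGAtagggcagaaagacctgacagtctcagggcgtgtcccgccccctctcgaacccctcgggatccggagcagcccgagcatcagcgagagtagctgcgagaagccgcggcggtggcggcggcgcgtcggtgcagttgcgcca
Txk upstream start (chr5:72752728-72753027, minus strand): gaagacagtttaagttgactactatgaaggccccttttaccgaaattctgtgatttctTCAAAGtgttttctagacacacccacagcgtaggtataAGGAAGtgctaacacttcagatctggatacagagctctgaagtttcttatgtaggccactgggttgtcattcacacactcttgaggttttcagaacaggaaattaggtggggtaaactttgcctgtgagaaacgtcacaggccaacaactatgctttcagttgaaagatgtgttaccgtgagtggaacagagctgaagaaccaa
Syk upstream start (chr13:52583187-52583486, plus strand): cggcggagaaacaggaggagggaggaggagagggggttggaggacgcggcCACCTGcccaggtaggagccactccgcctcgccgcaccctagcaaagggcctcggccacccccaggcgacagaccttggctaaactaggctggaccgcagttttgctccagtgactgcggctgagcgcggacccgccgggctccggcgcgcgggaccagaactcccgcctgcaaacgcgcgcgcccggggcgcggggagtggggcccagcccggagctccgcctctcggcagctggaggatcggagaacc

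The upstream Lck window held 3 matches to the ETS letters, 1 to the RUNX letters and 1 to the E protein letters. The downstream Lck window held 1 ETS match and 1 E protein match. The Txk window held 1 ETS and 1 TCF match, the Fyn window 1 TCF match, and the Syk window 1 E protein match. RefSeq gives a downstream start for both Txk and Syk, which is not printed. That of Txk held 1 RUNX match, and that of Syk held 1 E protein and 1 TCF match. No motif was common to all of these windows, printed or not. Of the 13 windows that RefSeq gives for 8 of the 9 genes, 7 held the ETS letters, 4 the RUNX letters, 7 the E protein letters and 5 the TCF letters. Of all 32851 mouse windows of this length, 35.4% held the ETS letters, 16.8% the RUNX letters, 20.2% the E protein letters and 16% the TCF letters. The searched letters of the motifs do not overlap one another in the windows printed. The matches are a description of letters and were not set against any binding data.

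Values are FPKM as the authors deposited them, fragment counts scaled for transcript length and for library depth, so levels can be compared between genes. Means carry the SD over 3 libraries. Fold changes are Induced over Initial and were taken from log2(FPKM + 1), a scale that understates the change of a gene near 0, and SE is their standard error. The adjusted p-values are from limma, fitted to all 11265 genes that reached 1 FPKM in 3 or more of the libraries, with Benjamini-Hochberg adjustment, and a gene was called at an adjusted p under 0.05. All 9 genes passed that filter, Syk through its Initial values alone, so that a difference for Syk was fixed by the filter.

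All libraries carried T cell transcripts, and Trdc, the δ chain constant region, did not pass with values as deposited, at 299 to 357 FPKM in Induced and 320 to 335 FPKM in Initial libraries. Of the 7 T cell markers, Cd3d, Cd3e and Cd2 fell and Thy1 rose. For the γδT17 label, Il17a was present in every library, at 7.64 to 22.5 FPKM in Induced and 7.34 to 15.3 FPKM in Initial libraries. The receptors Il23r and Il1r1 had 21.7 to 30.9 and 12.6 to 22.1 FPKM in Induced libraries, and 3.46 to 5.49 and 3 to 3.52 FPKM in Initial libraries. Red cell markers summed to 1.17 to 1.63 FPKM in Induced and 1217 to 1742 FPKM in Initial libraries. Dendritic cell markers summed to 0.705 to 6.27 FPKM in Induced and 11.7 to 14.8 FPKM in Initial libraries, neutrophil markers to 0.503 to 4.67 FPKM in Induced and 0.085 to 15.2 FPKM in Initial libraries, and platelet markers to 0 to 0.241 FPKM in Induced and 2.43 to 5.45 FPKM in Initial libraries. Alas2, Klra8, Clec9a, Gp9 and Ppbp were listed at 0 in all Induced libraries. Rough depths read from the smallest steps of the values were 21200000 to 22600000 fragments in Induced and 19100000 to 22700000 fragments in Initial libraries. Across genes, log2(FPKM + 1) correlated by 0.9862 to 0.9955 between libraries of a group and by 0.7858 to 0.8265 between groups. Induced library C stood nearer to the Initial libraries than Induced A and B for many genes, as counted further on.

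Of the 9 genes, Lck, Fyn, Txk and, passing the filter in Initial cells alone, Syk fell, Blk and Lcp2 rose, and Zap70, Lat and Plcg1 did not pass the test. The Src family genes had calls in both directions, while the adaptors and the phospholipase differed by at most 0.20 on the log2 scale. Between Induced and Initial cells limma called 70.4% of all tested genes, with 37.3% called higher and 33.1% called lower, so 6 calls among 9 genes is near that background. By size, 4 of the 9 fell by at least 1 on the log2 scale, where 13.2% of all tested genes did, and 1 rose by as much, where 12.0% did. The median log2 fold change was -0.17 over the 9 genes and 0.03 over all tested genes. The libraries of the groups did not overlap for 7 of the 9 genes, against 75.4% of all tested genes.

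**Figure D1:**
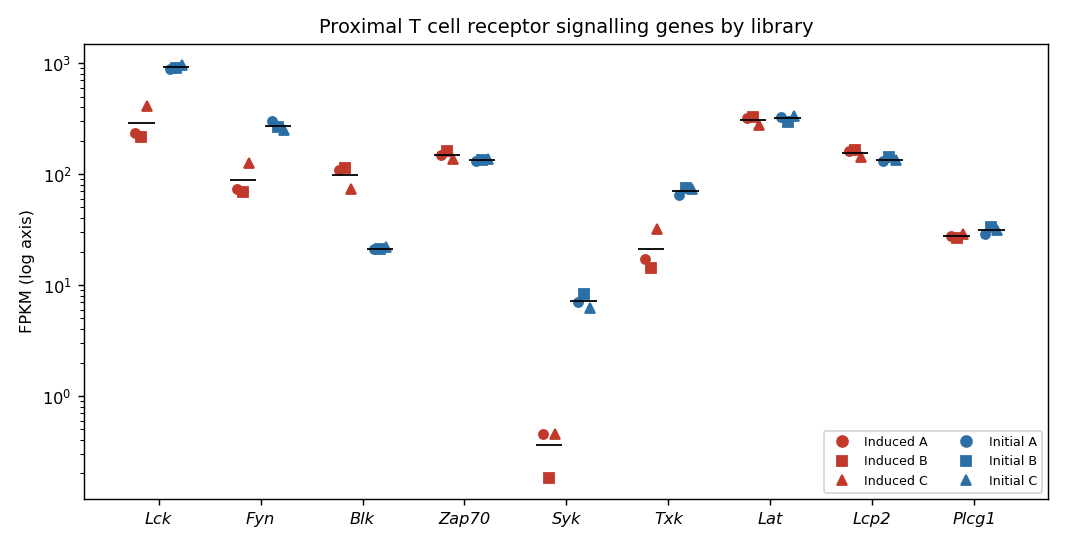
FPKM of each gene on a log axis in the 3 Induced libraries (red, left of each pair) and the 3 Initial libraries (blue, right), with the mouse shown by the marker shape and the group mean by a bar. Lck, Fyn, Txk and Syk are lower and Blk higher in every Induced library, and Induced C lies nearer to the Initial libraries than Induced A and B for Lck, Fyn, Blk and Txk.

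Lck (ENSMUSG00000000409, chromosome 4, 129548344 to 129573641, minus strand, GRCm38), the Src family kinase that starts receptor signalling in most T cells, had 234, 218 and 414 FPKM in Induced cells A, B and C, against 881, 907 and 970 FPKM in Initial cells A, B and C. Every Induced library lay below every Initial one, and Induced C was the highest of its group. The means were 289 ± 109 FPKM in Induced cells and 919 ± 45.9 FPKM in Initial cells (SD, n = 3 each), a log2 fold change of -1.73 (SE 0.23, limma adjusted p = 4.8e-04). Even so, Lck stayed above 98.1% of tested genes by mean level in Induced cells, against 99.7% in Initial cells.

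Fyn (ENSMUSG00000019843, chromosome 10, 39368855 to 39565381, plus strand), a Src family kinase that shares part of the work of Lck in T cells, had 73, 68.8 and 126 FPKM in Induced cells A, B and C, against 302, 264 and 248 FPKM in Initial cells A, B and C. As with Lck, the groups did not overlap and Induced C was the highest Induced library. The mean was 89.2 ± 31.7 FPKM in Induced cells and 271 ± 27.6 FPKM in Initial cells (log2 fold change -1.64, SE 0.23, limma adjusted p = 5.4e-04). Antisense genes lie across Fyn on the other strand, and those listed had at most 0.117 FPKM in Induced and 0.12 FPKM in Initial libraries.

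Blk (ENSMUSG00000014453, chromosome 14, 63372836 to 63417037, minus strand) rose. It had 109, 113 and 73 FPKM in Induced cells A, B and C, against 21.2, 20.9 and 21.9 FPKM in Initial cells A, B and C. The Initial libraries were close to one another, and even the lowest Induced library, C, was well above them. The mean was 98.6 ± 22.3 FPKM in Induced cells and 21.3 ± 0.485 FPKM in Initial cells, a ratio of the means of 4.62, with a log2 fold change of 2.13 (SE 0.16, limma adjusted p = 1.3e-05).

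The summed FPKM of these 3 Src family genes was 416, 400 and 612 in Induced cells A, B and C, against 1204, 1192 and 1241 in Initial cells A, B and C. Within that sum Blk took 26.3, 28.3 and 11.9% in Induced cells A, B and C, against 1.76, 1.75 and 1.76% in Initial cells A, B and C. Blk thus held a larger share of a smaller pool after culture, with Induced C between the Initial libraries and Induced A and B. Lck held 59.4 ± 7.12% in Induced and 75.8 ± 2.54% in Initial cells.

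Ratios within a library hardly depend on how libraries are scaled to each other. The log2 ratio of Blk to Lck averaged -1.50 ± 0.85 in Induced cells and -5.36 ± 0.05 in Initial cells (SD, n = 3 each), a difference of 3.86 that was positive in 3 of 3 mice (exact permutation test, two-sided, p = 0.1). That p is the smallest that 3 against 3 libraries allow. With libraries paired by mouse, an exact sign-flip test of the differences gave p = 0.25, the smallest that 3 pairs allow. The log2 ratio of Fyn to Lck was -1.68 ± 0.03 in Induced and -1.76 ± 0.21 in Initial cells, a difference of 0.08 with overlapping groups (exact permutation test, two-sided, p = 0.6). A difference between the falls of Lck and Fyn was thus not detectable in this ratio with 3 libraries per group, and its sign turned without Initial C, at -0.02. The 4 ratios computed form 1 family, and no p could pass adjustment over them.

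**Figure D2:**
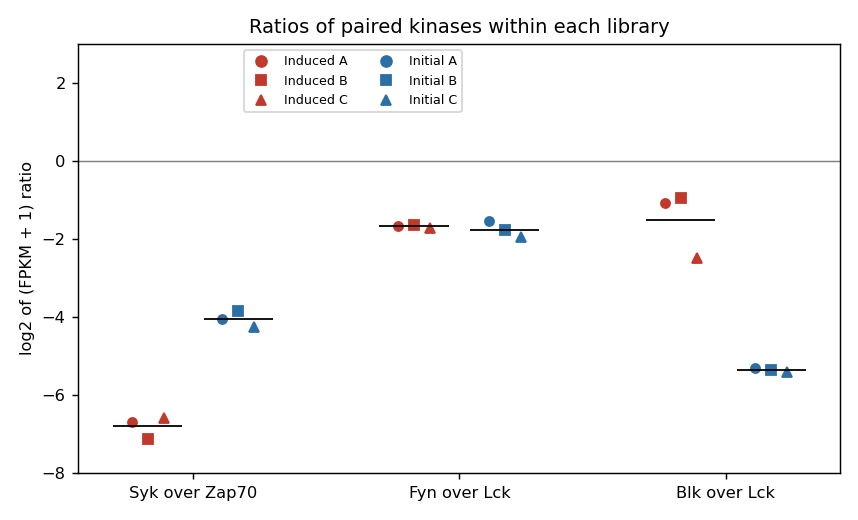
Log2 ratios of FPKM + 1 between kinases within each library, for the 3 Induced libraries (red, left) and the 3 Initial libraries (blue, right), with mouse by marker shape and a bar at the group mean. The Induced and Initial libraries are apart for Syk over Zap70 and Blk over Lck, and overlap for Fyn over Lck.

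Zap70 (ENSMUSG00000026117, chromosome 1, 36761798 to 36782818, plus strand), the Syk family kinase of T cells, had 149, 163 and 138 FPKM in Induced cells A, B and C, against 131, 134 and 136 FPKM in Initial cells A, B and C. The Induced libraries were all slightly higher, Induced C by the least. The mean was 150 ± 12.6 FPKM in Induced and 134 ± 2.53 FPKM in Initial cells, and the difference did not pass (log2 fold change 0.16, 95% interval -0.01 to 0.33, limma adjusted p = 0.0863). Without Induced C it passed, with a log2 fold change of 0.22 (limma adjusted p = 0.0228). With libraries scaled to Cd3d, Cd3e, Cd3g, Cd247 and Trdc, genes of the receptor complex itself, it also passed, at 0.39 (limma adjusted p = 0.00183). Of those 5 scaling genes, Cd3d and Cd3e themselves fell as deposited (log2 fold changes -0.47 and -0.53, limma adjusted p = 0.0113 and 1.2e-04), so this scaling raises all Induced values relative to Initial ones.

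Syk (ENSMUSG00000021457, chromosome 13, 52583173 to 52648792, plus strand), the related kinase of B cells and myeloid cells, had the lowest level of the 9 genes in both groups and the largest fall. It stood at 0.455, 0.181 and 0.451 FPKM in Induced cells A, B and C, against 6.99, 8.28 and 6.19 FPKM in Initial cells A, B and C. Here Induced B was lowest and Induced C did not stand apart. The mean was 0.362 ± 0.157 FPKM in Induced and 7.16 ± 1.05 FPKM in Initial cells, or 19.7 times lower by the means, with a log2 fold change of -2.58 (SE 0.14, limma adjusted p = 2.0e-06). Every Induced value was under the filter of 1 FPKM, so Syk was tested only because it was high in Initial cells. With a pseudocount of 0.1 in place of 1 the log2 fold change was -4.03, and with 5 it was -1.18, each past the threshold. From the rough depth of the libraries, the Induced values rest on about 51.7, 20.8 and 54.7 fragments in A, B and C, which gives each a counting error of 13.5 to 21.9%.

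Syk thus made up 0.305, 0.111 and 0.327% of the summed Syk and Zap70 FPKM in Induced cells A, B and C, against 5.07, 5.84 and 4.35% in Initial cells A, B and C. The log2 ratio of Syk to Zap70 was -6.79 ± 0.28 in Induced and -4.05 ± 0.20 in Initial cells, a difference of -2.74, lower in 3 of 3 mice (exact permutation test, two-sided, p = 0.1). With libraries paired by mouse, the exact sign-flip test gave p = 0.25. In bulk libraries fewer cells of a type and less RNA per cell cannot be told apart. Between the groups Syk differed in the same direction as B cell and macrophage markers, of cells that use it. Among Induced libraries Syk and the macrophage sum were both lowest in B, while the B cell sum was lowest in C. Syk in Induced A and C, at 0.455 and 0.451 FPKM, differed by less than the counting error. In the Initial group Syk was highest in B, the macrophage sum in A and the B cell sum in C. All 6 tested B cell markers fell, 1 of them, Ebf1, tested through Initial cells alone. The 7 B cell markers of the list summed to 25.2 to 48.8 FPKM in Induced and 193 to 234 FPKM in Initial libraries. All 8 macrophage markers fell, 7 of them tested through Initial cells alone, with sums of 1.67 to 4.35 FPKM in Induced and 465 to 818 FPKM in Initial libraries. Their part in the fall of Syk was not tested.

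Blk, which B cells also use, rose while those B cell markers fell, and Induced C had both the lowest B cell sum (25.2 FPKM, against 48.8 and 38.9 FPKM in A and B) and the lowest Blk of the Induced libraries. In the Initial group, library A had the lowest B cell sum, 193 FPKM, and 21.2 FPKM of Blk, between the values of B and C. Induced C stood apart for many genes, as counted further on. The part of B cells in the level of Blk was not tested.

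**Figure D3:**
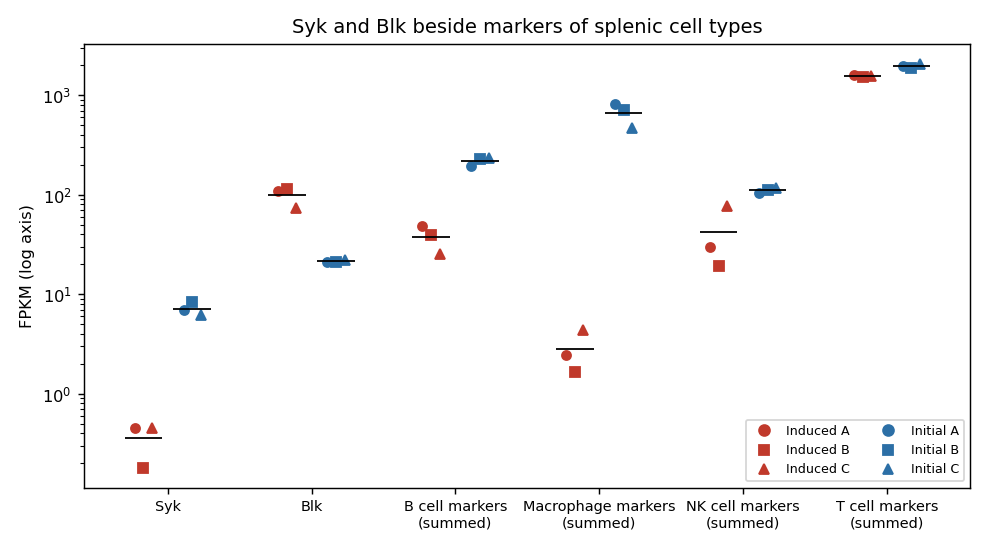
FPKM on a log axis of Syk, of Blk and of the summed markers of B cells, macrophages, NK cells and T cells in the 3 Induced libraries (red, left) and 3 Initial libraries (blue, right), with mouse by marker shape and a bar at the mean. Syk and the B cell and macrophage sums are lower in every Induced library, Blk is higher, and the T cell sum, 1518 to 1603 FPKM in Induced and 1858 to 2048 FPKM in Initial libraries, differs by the least.

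Txk (ENSMUSG00000054892, chromosome 5, 72695978 to 72752777, minus strand), a Tec family kinase of T cells also called Rlk, had 17.2, 14.3 and 31.9 FPKM in Induced cells A, B and C, against 64.5, 74.5 and 73.8 FPKM in Initial cells A, B and C. The groups were apart, with Induced C again nearest to the Initial libraries. The mean was 21.2 ± 9.44 FPKM in Induced and 70.9 ± 5.56 FPKM in Initial cells (log2 fold change -1.77, SE 0.27, limma adjusted p = 0.00112).

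Lat (ENSMUSG00000030742, chromosome 7, 126363824 to 126369570, minus strand), whose product gathers the signalling complex at the membrane, had 321, 324 and 279 FPKM in Induced cells A, B and C, against 328, 298 and 336 FPKM in Initial cells A, B and C. The groups overlapped. The mean was 308 ± 25.3 FPKM in Induced and 321 ± 20.2 FPKM in Initial cells, and the log2 fold change of -0.06 had a 95% interval of -0.25 to 0.13 (limma adjusted p = 0.537). Its sign turned to 0.17 under the scaling to receptor complex genes and to 0.01 without Induced C, neither past the threshold.

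Lcp2 (ENSMUSG00000002699, chromosome 11, 34046920 to 34092295, plus strand), which encodes the cytosolic adaptor, had 160, 166 and 143 FPKM in Induced cells A, B and C, against 131, 142 and 133 FPKM in Initial cells A, B and C. The Induced values were higher in 3 of 3 mice, by a small step. The mean was 156 ± 11.7 FPKM in Induced and 135 ± 5.67 FPKM in Initial cells (log2 fold change 0.20, SE 0.07, limma adjusted p = 0.0394). The call was lost in 9 of 16 alternative settings, with log2 fold changes of 0.16 to 0.43 over all 16, among them without Induced A (limma adjusted p = 0.127), Induced B (0.144), Initial A (0.112) or Initial C (0.0853). The gene 4930469K13Rik, across it on the other strand, had at most 0.0619 FPKM in Induced libraries and was listed at 0 in Initial ones.

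Plcg1 (ENSMUSG00000016933, chromosome 2, 160731300 to 160775760, plus strand), the phospholipase, had 27.7, 26.3 and 29.1 FPKM in Induced cells A, B and C, against 29.1, 33.6 and 31.6 FPKM in Initial cells A, B and C. It was lower in 3 of 3 mice, but the groups met at 29.1 FPKM. The mean was 27.7 ± 1.44 FPKM in Induced and 31.4 ± 2.25 FPKM in Initial cells (log2 fold change -0.17, 95% interval -0.35 to 0.00, limma adjusted p = 0.0744). It passed without Initial A, at -0.23 (limma adjusted p = 0.0396). Plcg1 overlaps Zhx3 on the other strand, which had 2.63 to 3.28 FPKM in Induced and 2.25 to 2.93 FPKM in Initial libraries. No source used here says whether the counting was strand-specific, so reads of these genes and of Plcg1 cannot be told apart.

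**Figure D4:**
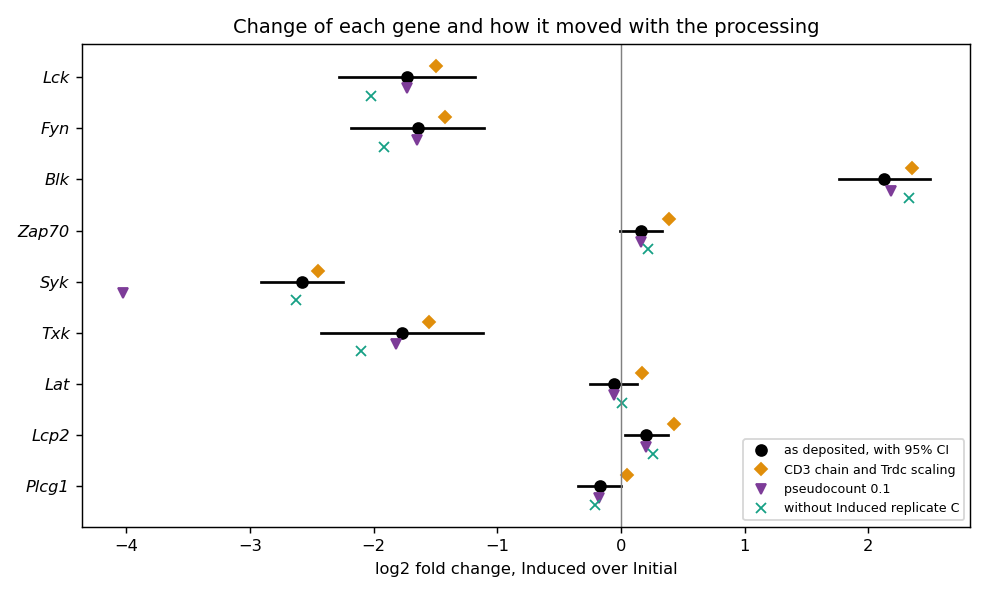
Log2 fold change of each gene, Induced over Initial, with its 95% interval for the values as deposited (black), and the same change after scaling to the receptor complex genes (CD3 chains and Trdc), with a pseudocount of 0.1 and without Induced library C. Lck, Fyn, Syk and Txk stay below 0 and Blk above 0 under each of these, while Lat and Plcg1 cross 0.

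By mean level the order of the 9 genes in Induced cells was Lat, Lck, Lcp2, Zap70, Blk, Fyn, Plcg1, Txk and Syk. In Initial cells it was Lck, Lat, Fyn, Lcp2, Zap70, Txk, Plcg1, Blk and Syk. Neighbours whose libraries overlapped were Lat with Lck, Lcp2 with Zap70, Blk with Fyn and Plcg1 with Txk in Induced cells, and Lat with Fyn and Lcp2 with Zap70 in Initial cells. Blk stood above 92.4% of tested genes in Induced cells and above 64.7% in Initial cells, and Txk above 63.7% in Induced and 89.1% in Initial cells.

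Induced library C lay between the other Induced libraries and the Initial ones for Lck, Fyn, Blk and Txk. Relative to the Initial mean, Lck was lower by log2 values of -1.15 in C and -2.02 in the mean of A and B, Fyn by -1.10 and -1.92, and Txk by -1.12 and -2.10. Blk was higher by 1.73 in C and by 2.33 in A and B. The same was common over the transcriptome. Of 2968 genes called with a log2 fold change of at least 1 in size without Induced C, 55.5% had in C a value between the Initial libraries and Induced A and B. Counted in the same way for the other libraries, the share was 28.9% of 2822 genes for Induced A and 21.1% of 2783 genes for Induced B. Of the NK cell markers Ncr1, Klrb1c, Eomes and Klra8, 3 could be tested and 2 fell, Klrb1c and, tested through Initial cells alone, Ncr1. The sum of these markers was 29.9, 19.1 and 77.5 FPKM in Induced A, B and C and 104 to 117 FPKM in Initial libraries. Within it, Eomes had 16.3, 7.16 and 46.7 FPKM and Klrb1c 13.4, 11.9 and 30.6 FPKM in Induced A, B and C. Ncr1 had 0.22, 0.0302 and 0.109 FPKM there, and Klra8 was listed at 0. The part of these markers in the position of library C was not tested. Without Induced C the 4 genes kept their calls, with log2 fold changes of -2.02 for Lck, -1.92 for Fyn, 2.33 for Blk and -2.10 for Txk.

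Genes whose profile over the 6 libraries was closest to that of Blk, by the root mean square distance of log2(FPKM + 1) centred on its own mean, were Tmem140 (distance 0.035), Prickle1 (0.070) and Tdrkh (0.074), out of 8268 genes with a mean FPKM of at least 5. Tmem140 had 34.7, 35.4 and 23.4 FPKM in Induced cells A, B and C, against 6.13, 6.47 and 6.61 FPKM in Initial cells A, B and C. Its lower value in Induced C, as in Blk, follows from choosing it for closeness over these same libraries. Closest to Syk, out of 8269 genes, were the immediate early gene Jun (0.089), the T cell receptor segment Trav15-2-dv6-2 (0.091), which belongs to a family of near-identical segments and is uncertain for that reason, and the NF-κB gene Rel (0.099). Syk was near 0 in Induced cells, where this scale understates its change, 19.7 times by the means. Nearness to Syk was not measured on another scale. Jun had 37.6, 28.8 and 37.9 FPKM in Induced cells A, B and C, against 195, 273 and 201 FPKM in Initial cells A, B and C. Like Syk, it was lowest in Induced B and highest in Initial B, which the choice by closeness favours.

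Other genes of the pathway came from a list of 17 partners of the 9 members. Of the 16 that could be tested, 10 fell, 2 rose and 4 did not pass, beside 33.1% of all tested genes called lower and 37.3% higher. The median log2 fold change of the list was -0.41, against 0.03 over all tested genes. The largest falls were those of Nck2, an adaptor that links the receptor to actin (13.1 ± 0.551 FPKM in Induced and 43.5 ± 1.57 FPKM in Initial cells), Prkcq, the protein kinase Cθ gene (60 ± 22.9 FPKM in Induced and 136 ± 6.53 FPKM in Initial cells), and Ptprc, which encodes the phosphatase CD45 that frees Lck from its inhibitory phosphate (340 ± 56.2 FPKM in Induced and 794 ± 33.6 FPKM in Initial cells). Their log2 fold changes were -1.66, -1.23 and -1.23 (limma adjusted p = 4.3e-07, 0.00316 and 3.6e-05). Prkcq was again highest in Induced C, at 86 FPKM against 51.3 and 42.6 FPKM in A and B.

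The partners that rose were Rasgrp1, the diacylglycerol-driven activator of Ras, and Grap2, which encodes the adaptor Gads that joins the products of Lat and Lcp2. Rasgrp1 had 158, 161 and 135 FPKM in Induced cells A, B and C, against 50, 63 and 53.5 FPKM in Initial cells A, B and C (log2 fold change 1.43, SE 0.10, limma adjusted p = 9.1e-06). Grap2 had 29.9 ± 0.645 FPKM in Induced and 22.8 ± 2.03 FPKM in Initial cells (log2 fold change 0.38, limma adjusted p = 0.00299). With libraries scaled to the receptor complex genes, 6 partners fell and 2 rose. Any part of B cells and macrophages, whose marker sums were lower in Induced cells, in the falls of partners was not tested.

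Genes that restrain the pathway mostly fell. Of 17 tested, 13 fell, 2 rose and 2 did not pass, beside 33.1% of all tested genes called lower, and their median log2 fold change was -0.86. The B cell and macrophage marker sums given with Syk were lower in Induced cells too. Any part of such cells in the falls of this list was not tested. The largest falls were those of Dgka, which encodes a kinase that removes diacylglycerol (38.7 ± 11.7 FPKM in Induced and 153 ± 8.1 FPKM in Initial cells), Pag1, the membrane anchor of the inhibitory kinase Csk (3.34 ± 0.49 FPKM in Induced and 14.9 ± 0.192 FPKM in Initial cells), and Cbl, a ubiquitin ligase (5.68 ± 0.705 FPKM in Induced and 15.1 ± 2.16 FPKM in Initial cells). Their log2 fold changes were -1.99, -1.88 and -1.26 (limma adjusted p = 4.8e-05, 2.0e-06 and 5.4e-05). Csk itself had 36.5 ± 2.16 FPKM in Induced and 54.6 ± 4.14 FPKM in Initial cells. The 2 that rose were Dok1 (17.5 ± 2.32 FPKM in Induced and 12.4 ± 2.14 FPKM in Initial cells) and Sla2 (48.5 ± 1.2 FPKM in Induced and 35.8 ± 2.08 FPKM in Initial cells), both adaptors that dampen signalling (limma adjusted p = 0.0177 and 6.2e-04). The call of Dok1 was lost without Induced B (limma adjusted p = 0.0596) or Initial A (0.0535). With libraries scaled to the receptor complex genes 10 fell and 4 rose. That scaling moved the median of all tested genes by 0.21 on the log2 scale, and the share of called genes that rose was 66.8% with it and 52.9% without it.

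Most tested counterparts of the 9 genes in B cells and myeloid cells fell. Of 8 tested, 7 fell, beside 33.1% of all tested genes called lower, and 2 of these 8 passed the filter through Initial cells alone. The median log2 fold change of the 8 was -2.07. The falls were of unequal size, and Plcg2, the counterpart of Plcg1, had 11.5 ± 1.63 FPKM in Induced and 14.9 ± 0.507 FPKM in Initial cells (log2 fold change -0.35, limma adjusted p = 0.0154). The call of Plcg2 was lost without Induced A (limma adjusted p = 0.06), without Induced B (0.0558) and with the scaling to receptor complex genes (0.322). Src, not tested for its low values, had 0.56 ± 0.197 FPKM in Induced and 0.0892 ± 0.0246 FPKM in Initial cells. The eighth, the Src family gene Yes1, had 1.97 ± 0.811 FPKM in Induced and 1.02 ± 0.628 FPKM in Initial cells and did not pass (limma adjusted p = 0.102). Yes1 passed as higher in 5 alternatives, with the mouse as a block (limma adjusted p = 0.0418), without Induced B (0.0455), without Initial C (0.0442), with quantile normalization (0.0286) and with the scaling to receptor complex genes (0.0459). Among those that fell were Blnk, the B cell counterpart of Lcp2 (1.71 ± 1.11 FPKM in Induced and 15.6 ± 2.82 FPKM in Initial cells), and Lyn, a Src family kinase gene of B cells and myeloid cells (4.75 ± 0.3 FPKM in Induced and 33.6 ± 4.72 FPKM in Initial cells). Their log2 fold changes were -2.69 and -2.58 (limma adjusted p = 1.9e-04 and 6.0e-07). The B cell and macrophage marker sums given with Syk fell alongside, and their part in these falls was not tested. With the scaling to receptor complex genes 6 fell and 1 rose.

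**Figure D5:**
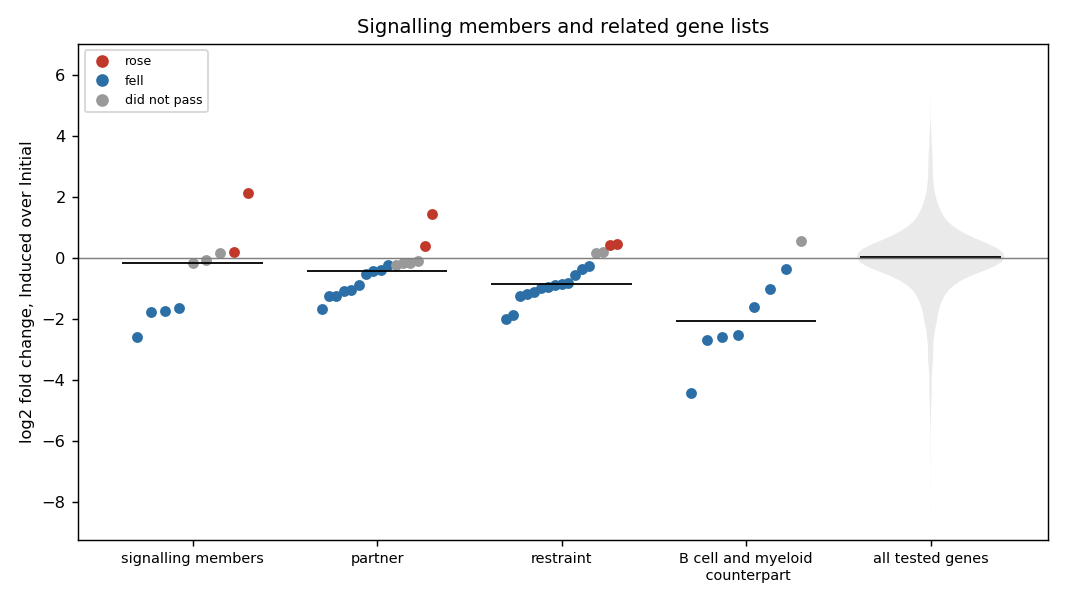
Log2 fold change, Induced over Initial, of the 9 signalling genes, of the partners, of the restraining genes and of the B cell and myeloid counterparts (points, coloured by the limma call at an adjusted p under 0.05), beside the distribution of all 11265 tested genes (grey), with bars at the medians. The medians are -0.17 for the 9 genes, -0.41 for the partners, -0.86 for the restraining genes, -2.07 for the counterparts and 0.03 for all tested genes.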

How the data were processed

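Messenger RNA of γδ T cells was measured in 3 Induced and 3 Initial libraries. The authors deposited FPKM per gene and library. Cuffdiff computed those FPKM from mRNA libraries of a VAHTS kit, per the labels' protocols. The build mm9, Cuffdiff 1.3.0 and 2.2.1, HISAT2 2.0.5 and CASAVA are named, with no roles, per the submitters' processing notes. The loci in the files match GRCm38, where 90.46% of 26669 genes lie inside the span the file gives, so GENCODE M21 positions on GRCm38 are printed. A gene missing from a table was taken as 0.

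The test on log2(FPKM + 1) was two-sided and without a block, with trend and robust shrinkage, in limma 3.58.1 under R 4.3.3. Ratios used scipy 1.17.1 and pandas 2.3.3 under Python 3.11.15, and plots matplotlib 3.10.9. The script was tested on simulated data. Ratios of FPKM + 1 were compared with exact permutation tests and, paired by mouse, with exact sign flips of the within-mouse differences. The mouse letters in the titles pair the libraries by animal, although deviations from the group means correlated by only 0.0393, 0.0307 and 0.131 for A, B and C, against -0.132 to 0.0988 between different mice. The p-values measure spread among 3 mice per group.

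Genes with 1 annotated transcript over 600 bases gave the depth: 50 to 53.4% of their low values lay within 0.15 of whole fragments, so depths are rough. Counting errors cover counting only and use the longest transcript. The 9 members, the lists and the scaling to CD3 chains and Trdc were chosen with earlier results of these data known. From each list the 3 largest called rises and falls are named, and for the largest called rise and fall among the members the 3 closest profiles. The result of 1 ratio and the values of some list genes are not reported here. Genes named outside this rule (Csk, Yes1, Plcg2, Src, Il17a, Il23r, Il1r1 and the antisense genes) were chosen after their values were seen. Alternatives were pseudocounts of 0.1 and 5, no filter, a filter at FPKM 5, TMM-like factors, a common sum, quantile normalization, CD3 and Trdc scaling, the mouse as a block, no trend or robust shrinkage, and leaving out each library.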

Additional observations from a re-analysis of the deposited data

How the results depend on the processing

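The directions and calls of Lck, Fyn, Blk and Txk held in all 16 alternatives each, leaving out a library included. Their log2 fold changes were -2.02 to -1.5, -1.92 to -1.42, 1.95 to 2.35 and -2.1 to -1.55. Syk kept its direction and call as well, at -4.03 to -1.18. It passed the filter through Initial values alone, which fixed its difference, so its stable call adds no support. Zap70 passed with CD3 and Trdc scaling (0.39) and without Induced C (0.22), and ran from 0.1 to 0.22 over the libraries left out. Lat changed sign with that scaling (0.17) and ran from -0.11 to 0.01 over the libraries left out. Lcp2 did not pass with no filter (0.20, adjusted p = 0.064), TMM-like factors (0.21, 0.0604), a common sum (0.19, 0.0662), quantile normalization (0.16, 0.111) or without trend and robust shrinkage (0.20, 0.0623), and ran from 0.16 to 0.26 over the libraries left out. Plcg1 passed with quantile normalization (-0.22), changed sign with CD3 and Trdc scaling (0.05, adjusted p = 0.673), and ran from -0.23 to -0.13 over the libraries left out. The difference in the log2 ratio of Syk to Zap70 was -4.19 with a pseudocount of 0.1 and -1.33 with 5. That of Fyn to Lck ran from -0.02 to 0.19 over the libraries left out. The cause of these changes was not tested, save that a larger pseudocount shrinks changes of low values by construction. With the mouse as a replicate block, log2 fold changes were as in the unblocked fit and no call of the 9 genes changed (Lcp2 0.20, adjusted p = 0.0312; Zap70 0.16, adjusted p = 0.0937), and 7943 genes were called in place of 7931. Under the block the counterparts gained 1 call, Yes1, and the restraining genes 1, Sla. Over the alternatives 6175 to 9189 genes were called, 8 to 14 of the partners, 12 to 16 of the restraining genes and 6 to 9 of the counterparts. Depth limits Syk in Induced cells most.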
